A study of Mus musculus with 41 samples.

Results

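Genes of the cerebellar glia, 9 of the 22438 genes with footprint counts in the series, were followed in ribosome-protected fragments of mouse tissues. They were chosen as a fixed list of symbols: Mbp, Mag, Mog, Mobp and Cnp for myelin, and Gfap, Aqp4, Slc1a3 and Gdf10 for astroglia. All 9 matched 1 row each, and their coding sequences overlapped no coding sequence of another gene in the annotation used here. The 6 cerebella came from P14 C57BL/6J mice that all carried an Atoh1-driven Cre transgene: 3 were Hbs1l conditional knockout (Hbs1l cKO) and 3 were controls (Atoh-Cre;Hbs1l +/+). One cerebellum gave 1 library. Per the study's methods the cKO mice were Hbs1l fl/-, so that every cell of them, glia included, carried a null allele beside the floxed one, while the controls carried neither. The methods also give the cKO mice the C57BL/6J allele of n-Tr20, which lowers the amount of a brain arginine tRNA, and the controls are labelled with the same strain. Atoh1-driven Cre acts in the lineage that forms the granule cells, so that oligodendrocytes and astroglia were not its targets. The tissue was whole cerebellum. Lower footprints of a cell type's gene can come from fewer cells of that type, from less RNA per cell or from fewer ribosomes on it, and these cannot be told apart here.

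For reference, the series held E8.5 whole embryos on C57BL/6NJ (3 Hbs1l -/- and 3 wild type libraries, several embryos to a library). It also held mouse embryonic fibroblasts (MEFs) on C57BL/6 with a tamoxifen-inducible CAG-Cre ER transgene in all cells, all treated with tamoxifen, each replicate from 1 embryo. The MEF genotypes were Hbs1l cKO, Pelo cKO, Upf2 cKO and CAG-Cre ER control, with 3 footprint libraries each and a control set for each mutant, and RNA libraries in 11 samples. HBS1L and PELO form a complex that rescues stalled ribosomes, and UPF2 acts in nonsense-mediated decay.

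Myelin is the compacted membrane that oligodendrocytes wrap around axons. Its proteins have separate places: MBP holds the compact layers together, MOBP lies in compact myelin, CNP keeps cytoplasmic channels open, MAG faces the axon and MOG lies on the outer surface. Oligodendrocyte precursors become premyelinating cells that express Gpr17 and Bcas1, and these become myelin-forming cells. Mbp mRNA is carried into the myelin sheath and translated there. In the cerebellum, astroglia comprise astrocytes of the white matter and granular layer, in which GFAP filaments and the water channel AQP4 are abundant, and Bergmann glia, which span the molecular layer and are rich in the glutamate transporter GLAST (Slc1a3) and in the growth factor GDF10. Myelination of the mouse cerebellum is under way at P14.

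The codon read by the n-Tr20 tRNA is AGA, and coding stretches with AGA are shown because of the allele that lowers this tRNA. The methods give it to the cKO mice and the controls are labelled with the same strain, so it is not known to differ between the groups. Each stretch is 10 codons of the coding strand, 5′ to 3′, read from GRCm38, with AGA codons in capitals. The stretch was the first in the transcript, within 1 exon, that held the most AGA codons. No stretch was printed for Mbp or Aqp4.
Mag (chr7:30901065-30901094, minus strand, codons 529 to 538): attgtgtgctacatcacccagacgAGAAGA
Mog (chr17:37017489-37017518, minus strand, codons 174 to 183): gtattcctcttcctgcagcacAGActgAGA
Mobp (chr9:120168257-120168286, plus strand, codons 81 to 90): cagccagctgcgtccccagtggtggtcAGA
Cnp (chr11:100578942-100578971, plus strand, codons 235 to 244): cttgagctggtcagctactttggaaagAGA
Gfap (chr11:102897088-102897117, minus strand, codons 1 to 10): atggagcggAGAcgcatcacctctgcgcgc
Slc1a3 (chr15:8708692-8708721, minus strand, codons 8 to 17): gagcctaggatggggggcaggatggagAGA
Gdf10 (chr14:33924121-33924150, plus strand, codons 76 to 85): ctcaggctctatgagaagtacaaccgaAGA
The myelin genes differed widely in AGA use. Mog had 8 AGA codons among 247 (3.24%), above 95.5% of 21508 genes, and the Mbp transcript with the longest coding sequence had 7 among 250 (2.80%, above 92.7%). Other Mbp transcripts were not counted, so this share may not be that of the forms made in myelin. Mobp followed with 3 of 170 (1.76%) and Mag with 7 of 627 (1.12%), the latter at the median of all genes (1.11%). Cnp was low, with 2 of 420 (0.476%). The astroglial genes lay between 0.619% (Aqp4, 2 of 323) and 0.930% (Gfap, 4 of 430). Slc1a3 had 5 of 543 and Gdf10 4 of 476. The files give counts per gene and no positions, so footprints at these codons were not analysed here. The paper reported that ribosome occupancy of AGA codons was not significantly raised in the Hbs1l mutant cerebella. Any link of AGA use to the fold changes below was not tested.

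Assigned footprint counts per library ranged from 10919139 to 22591768 in cerebella, from 2634480 to 7298812 in embryos and from 5782990 to 25607974 in MEFs. RNA libraries held 22713643 to 86425762 estimated counts. Footprints of Hbs1l were lower in the mutant cerebella (log2 fold change -1.50, SE 0.13, edgeR adjusted p = 0.0128), embryos (-3.60) and MEFs (-4.15), and Pelo was lower in Pelo MEFs (-3.78). Upf2 was higher, not lower, in the libraries labelled Upf2 (1.09 in footprints and 1.33 in RNA), and these are called by their label below. In the Pelo MEFs Upf2 RNA was lower (-1.38, edgeR adjusted p = 0.00548) while Upf2 footprints were at 0.035. One control cerebellum stood apart. Over 11657 genes, the median absolute log2 ratio was 0.0986 between controls 1 and 2, but 0.274 and 0.247 between control 3 and each of them, against 0.162 to 0.192 between cKO cerebella. Control MEF libraries of the same number in the 3 pools differed by little more than sampling noise (chi-square per degree of freedom 1.10 to 1.18 in 9 pairs, against 3.91 to 11.96 for other numbers). They were counted as 1 sample each for levels, and the 3 MEF comparisons of footprints share those control cells. Tissues differ in their batch label as well, so that tissue and batch cannot be told apart in comparisons of level.

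The 9 genes took 0.773% to 0.919% of all assigned counts in the control cerebella and 0.786% to 0.895% in the Hbs1l cKO cerebella. No member passed the test between these groups. In the edgeR quasi-likelihood test, 9 of 14430 genes (0.0624%) had an adjusted p of at most 0.05, against 1936 (13.4%) with an unadjusted p under 0.05. The median log2 fold change of the 9 genes was -0.19, with 0.00 over all genes tested. Of the 9, 6 had a log2 fold change below 0, where 50.0% of all genes had one. The 5 myelin genes had a median of -0.34 and the 4 astroglial genes one of 0.07. These medians moved with single libraries of both groups. Without control 3 the median of the 9 genes was -0.0036 with 5 below 0, that of the myelin genes -0.49 and that of the astroglial genes 0.31. Without cKO 1 or 2 the median of the 9 genes was -0.050 or -0.40, and without cKO 2 the astroglial median was 0.0071. Without control 1 or 2 the astroglial median was -0.030 or -0.037. Under scaling by library totals the median of all genes was 0.10 and that of the 9 genes -0.09, so the offset from all genes was similar.

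**Figure D1:**
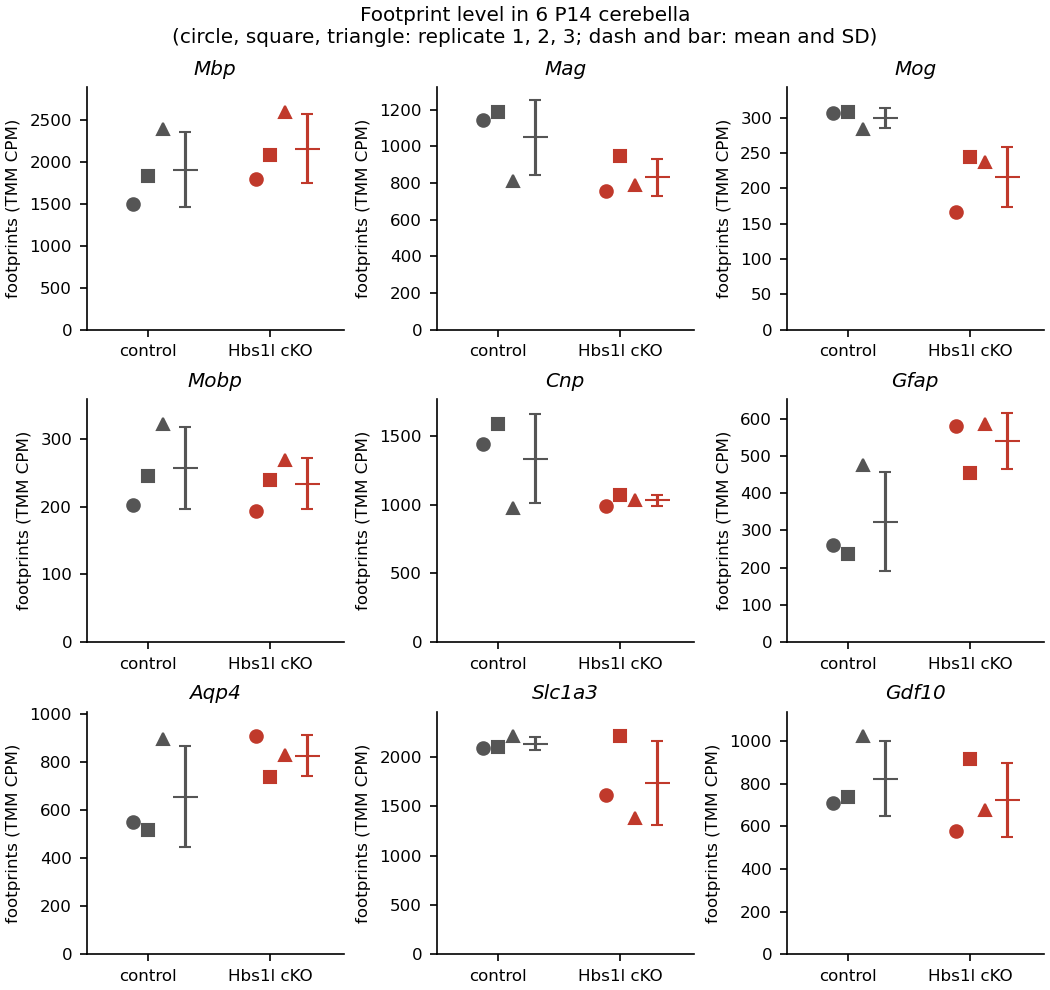
Footprints of the 9 genes in each P14 cerebellum, in TMM-normalised CPM (y axis, from 0) for control and Hbs1l cKO (x axis); symbols are replicates and the dash with bar is the mean and SD of 3. The control and cKO values of Mog do not meet, and those of the other 8 genes overlap.

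Mog, the outer-surface protein, was the member whose 2 groups did not overlap. It stood at 306, 309 and 283 TMM-normalised CPM (counts scaled to library size) in controls 1, 2 and 3 and at 167, 244 and 237 in Hbs1l cKO cerebella 1, 2 and 3. Every cKO value was thus under the lowest control, in a test where 8.91% of all genes had all 3 mutant values lower and 9.38% all 3 higher. The log2 fold change was -0.47 (SE 0.16, unadjusted p = 0.0185, edgeR adjusted p = 0.266).

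Mag, on the axonal face, and Cnp, of the cytoplasmic channels, shared a pattern. Mag was 1143, 1189.8 and 812 CPM in controls and 755, 945 and 792 in cKO cerebella (-0.34, SE 0.18, adjusted p = 0.468 by edgeR). Cnp was 1446, 1592 and 976 CPM in controls and 990.2, 1072 and 1034 in cKO cerebella (-0.37, SE 0.19, edgeR adjusted p = 0.438). In both genes controls 1 and 2 were the 2 highest libraries, and control 3 fell within the cKO range for Mag and under it for Cnp. The cKO values of Cnp were also close together (1032 ± 41.1, SD, n = 3) beside those of the controls (1338 ± 322, SD, n = 3).

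Mbp and Mobp had another order. Mbp, the most abundant myelin member, was 1499, 1839 and 2390.3 CPM in controls and 1798, 2083 and 2603 in cKO cerebella (0.18, SE 0.21, edgeR adjusted p = 0.758). Mobp was 203, 246 and 323 CPM in controls and 194, 239 and 269 in cKO cerebella (-0.14, SE 0.20, edgeR adjusted p = 0.804). Control 3 was the highest control for both, where it was the lowest for Mag, Mog and Cnp. The 5 genes of 1 membrane therefore did not move as a unit between libraries.

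The balance among myelin genes was described by ratios within each library, chosen after their values were seen and given with no test. The CPM of Mbp was 4.89, 5.96 and 8.44 times that of Mog in controls and 10.8, 8.55 and 11 times in cKO cerebella. The lowest cKO value of this ratio (8.55) lay just above the highest control (8.44). Its denominator Mog did not overlap between the groups by itself, so the separation of the ratio is not independent of Mog. How many other pairs of genes would separate in this way was not counted. Mobp over Mog was 0.663, 0.796 and 1.14 in controls and 1.16, 0.979 and 1.14 in cKO cerebella. There the groups overlapped at control 3. Gfap over Mag and Aqp4 over Slc1a3 were also calculated, and the groups overlapped in both.

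Gfap had the largest fold change of the 9 genes. The astrocyte filament gene was 259.7, 235 and 475 CPM in controls and 581, 452 and 586 in cKO cerebella (0.74, SE 0.26, unadjusted p = 0.0221, edgeR adjusted p = 0.283). Controls 1 and 2 were the 2 lowest libraries, while control 3 lay above cKO 2. Aqp4, the water channel of astrocyte endfeet, was 552, 517 and 898 CPM in controls and 911, 739.8 and 832 in cKO cerebella (0.34, SE 0.22, edgeR adjusted p = 0.558). Its control 3 was the second highest of the 6 libraries.

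The Bergmann glia genes did not share this order. Slc1a3 was close in the controls at 2091, 2099 and 2208 CPM and spread in the cKO cerebella at 1616, 2213 and 1379.9 (-0.30, SE 0.19, edgeR adjusted p = 0.541). Gdf10 was 710.1, 737 and 1024 CPM in controls and 578, 916 and 676 in cKO cerebella (-0.19, SE 0.21, edgeR adjusted p = 0.747). For both genes cKO 2 was the highest mutant library and cKO 1 and 3 lay under all 3 controls. Gfap over Slc1a3, a ratio chosen after the values were seen, was 0.124, 0.112 and 0.215 in controls and 0.359, 0.204 and 0.425 in cKO cerebella, overlapping at control 3 and cKO 2.

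**Figure D2:**
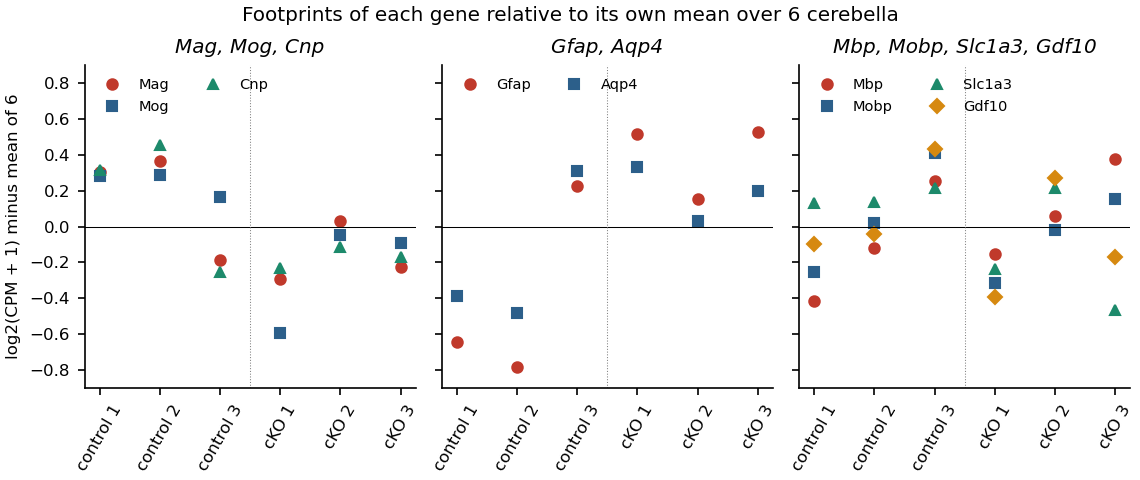
Each gene's log2(CPM + 1) minus its mean over the 6 cerebella (y axis) by library (x axis), with the dotted line between controls and Hbs1l cKO. Control 3 sits with the cKO libraries for Mag, Cnp, Gfap and Aqp4, and Mog is the gene in which the 2 groups stay apart.

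Control 3 decided 3 of these calls. Without it, 560 of 14597 genes (3.84%) passed the edgeR test, and among them were Cnp (-0.56, SE 0.12, adjusted p = 0.0430), Gfap (1.12, SE 0.15, adjusted p = 0.0149) and Aqp4 (0.63, SE 0.13, adjusted p = 0.0428). Mag (-0.49, adjusted p = 0.0774), Mog (-0.51, adjusted p = 0.116) and Mbp (0.37, adjusted p = 0.257) did not pass, and Mobp turned from -0.14 to 0.06. Slc1a3 was -0.27 and Gdf10 -0.0036. Leaving out any of the other 5 libraries called no member. Those fits called 88 genes without cKO 2 and 0 without cKO 1, cKO 3, control 1 or control 2. Several members moved with these libraries. Slc1a3 was -0.51 without cKO 2 and -0.16 without cKO 3, and Gdf10 was -0.40 without cKO 2 and -0.050 without cKO 1. Mbp was 0.024 without cKO 3, 0.031 without control 1 and 0.30 without cKO 1. Without control 2, Aqp4 was 0.19 and Cnp -0.23. With DESeq2 on all 6 libraries, 484 genes (3.35%) passed and no member did: the nearest were Gfap (adjusted p = 0.0899) and Mog (adjusted p = 0.101).

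The rest of the myelin programme was read from lists chosen with earlier results known, whose members exclude the 9 genes. Of 12 other structural myelin genes, 11 had a log2 fold change below 0, with a median of -0.46. None passed the edgeR test, 8 had an unadjusted p under 0.05 (13.4% of all genes had one), and in 6 every cKO value was under every control (8.91% of all genes). The tight-junction gene Cldn11 was 1008, 1092 and 866 CPM in controls and 594, 789 and 787 in cKO cerebella (-0.45, SE 0.16, edgeR adjusted p = 0.289). The tetraspanin Tspan2 had -0.44. DESeq2, which called 3.35% of all genes, called 3 of the 12, among them Mal (-0.78 in edgeR, DESeq2 adjusted p = 0.0197) and Opalin (-0.59, DESeq2 adjusted p = 0.0110). Without control 3, edgeR called none of the 12. Mal encodes a proteolipid of myelin and Opalin an oligodendrocyte membrane protein.

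Of 6 genes for myelin lipids, 5 had a log2 fold change below 0 (median -0.34), all 5 without overlap of the groups (8.91% of all genes) and all 5 with an unadjusted p under 0.05 (13.4%), and none passed edgeR with all libraries. Ugt8a, which makes galactosylceramide, was 759.7, 773 and 640.3 CPM in controls and 547, 589 and 585 in cKO cerebella (-0.34, SE 0.13, edgeR adjusted p = 0.325). The ceramide synthase Cers2 had -0.34 and the fatty acid hydroxylase Fa2h -0.40. Without control 3, which called 3.84% of all genes, Aspa passed (-0.80, edgeR adjusted p = 0.0379), while DESeq2 with all libraries called none of the 6. The enzyme Aspa supplies acetate in oligodendrocytes.

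Genes of earlier stages of the lineage were read from 2 further lists. Of 6 precursor and premyelinating genes, 4 had a log2 fold change above 0 (median 0.24), and 3 of them (Gpr17, Bcas1 and Pdgfra) had every cKO value above every control (9.38% of all genes) with an unadjusted p under 0.05 (13.4%). Gpr17 was 114, 132 and 129 CPM in controls and 196, 143 and 204 in cKO cerebella (0.53, SE 0.16, edgeR adjusted p = 0.205). Bcas1 was 93.5, 113 and 119 CPM in controls and 158, 125 and 153 in cKO cerebella (0.42, SE 0.15, edgeR adjusted p = 0.266). The other 2 were below 0: Enpp6, of newly formed oligodendrocytes, had -0.06 and Cspg4 had -0.14 (SE 0.32). Without control 3, Cspg4 was -0.46 and Pdgfra went from 0.42 to 0.28. None of the 6 passed in edgeR, with or without control 3, or in DESeq2. The 8 transcription factors and regulators of the lineage had a median of 0.19, with 5 above 0 and 3 below and none with an unadjusted p under 0.05: Olig1 had 0.23, Sox8 0.16 and Sox10 -0.04.

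**Figure D3:**
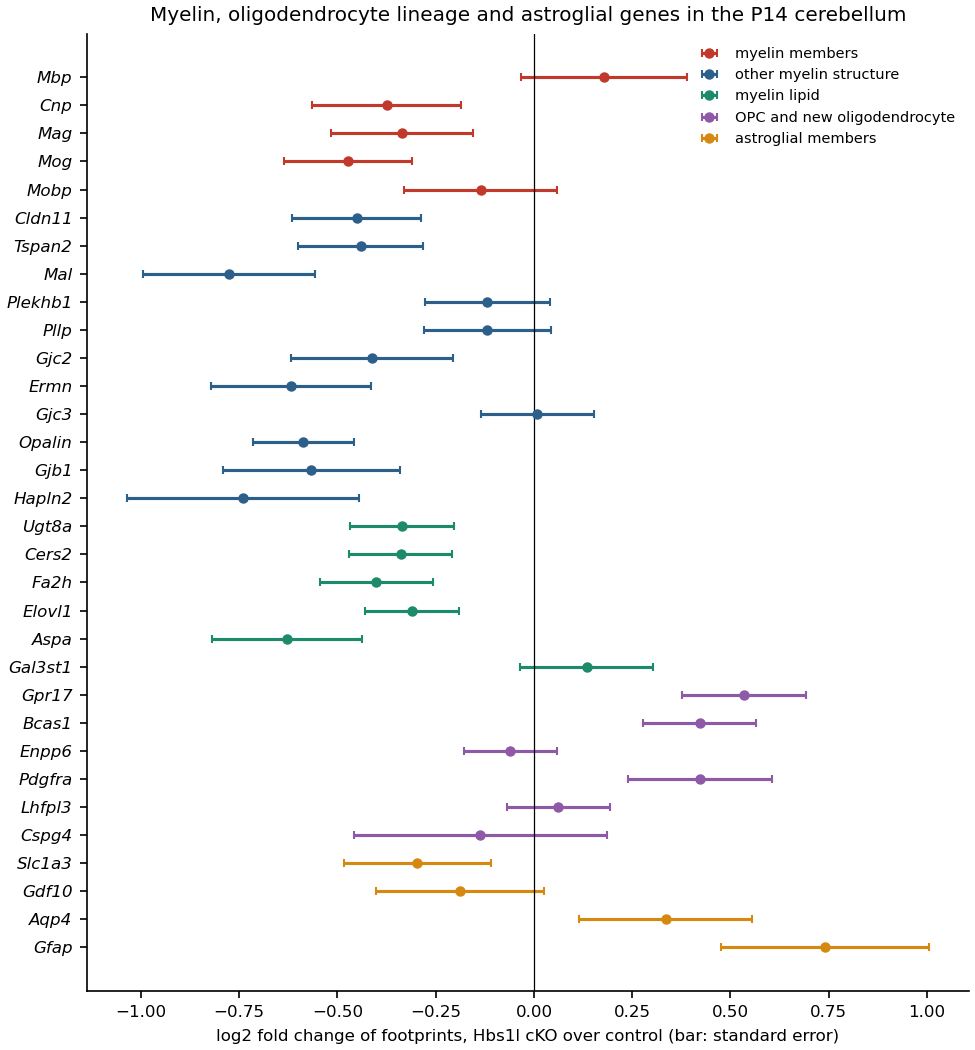
The log2 fold change of footprints in Hbs1l cKO over control cerebella (x axis, point) with its standard error (bar) for the 9 genes and genes from 3 lists of the oligodendrocyte lineage (y axis). Structural and lipid genes of myelin lie mostly left of 0. Gpr17, Bcas1 and Pdgfra lie right of 0, Cspg4 and Enpp6 left of 0, and Gfap lies farthest right. None passed the edgeR test.

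Other astroglial genes were read from 2 lists. Of 12 astrocyte genes, 8 were above 0 with a median of 0.09, none passed in edgeR or DESeq2, and 1 (Sox9, 0.30) had every cKO value above every control, where 9.38% of all genes had. Without control 3, 11 of the 12 were above 0 with a median of 0.25, and none passed. Ndrg2 had -0.01, the glutamate transporter Slc1a2 0.14 and the bicarbonate transporter Slc4a4 -0.04. Of 5 genes of Bergmann and radial glia, 3 were above 0 (median 0.08). Fabp7, a lipid-binding protein of these cells, was 548, 599.6 and 848 CPM in controls and 1168, 901 and 1152 in cKO cerebella (0.69, SE 0.20, edgeR adjusted p = 0.194). It passed in DESeq2 (adjusted p = 0.0221) and in edgeR without control 3 (0.90, adjusted p = 0.0258). Vim had 0.18 and Tnc -0.02. The summed level of the 12 astrocyte genes was 3626 to 5026 CPM in controls and 4204 to 4344 in cKO cerebella.

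Markers of other cells moved with the groups or with control 3, and their part in the values of the 9 genes was not tested. The 8 Purkinje cell genes were all below 0 (median -0.80; 7 of 8 without control 3), with a summed level of 7954 to 15157 CPM in controls, control 3 lowest, and 5836 to 7947 in cKO cerebella. The 8 granule neuron genes were all below 0 (median -0.48; 4378 to 5809 CPM in controls, control 3 highest, and 2873 to 4472 in cKO), but without control 3 the median was -0.28 with 3 of 8 above 0. Of 7 granule progenitor genes, 5 were above 0 (median 1.02; 136 to 158 against 236 to 366 CPM). The 8 inhibitory interneuron genes (median -0.43; 3733 to 5157 against 2856 to 3433 CPM) and the 8 endothelial and pericyte genes (median -0.42; 497 to 739 against 490.4 to 525 CPM) were all below 0. All 10 microglial genes were above 0 (median 0.28; 314 to 409 against 388 to 461 CPM). DESeq2, with 3.35% of all genes called, called 3 Purkinje, 2 granule neuron, 5 granule progenitor, 1 interneuron, 1 endothelial or pericyte and 0 microglial genes of these lists. In edgeR without control 3, with 3.84% of all genes called, the counts were 5, 0, 3, 3, 4 and 1.

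Markers of adjoining tissue varied between libraries of the same group. The 5 choroid plexus genes summed to 993 to 4446 CPM in controls and 3322 to 5359 in cKO cerebella, and the 6 meningeal fibroblast genes to 1131 to 4229 and 1438 to 3145. None of these lists held a gene that passed the edgeR test with all 6 libraries.

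Genes whose level over the 6 cerebella was most like that of the members were named by Pearson r with the mean standardised log2 CPM of the group, among 11648 genes outside the 9 with a mean of at least 5 CPM. For the 5 myelin genes these were Fkbp1a (r = 0.997), Ndufb2 (0.994), 1700037H04Rik (0.993), BC048403 (0.991) and Ndufa11 (0.990). For the 4 astroglial genes they were Usp16 (0.998), Seh1l (0.996), Pigp (0.995), Slc25a44 (0.993) and Tm9sf3 (0.992). Each r rests on 6 libraries and on a choice of the highest among those genes, and is given as a description.

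Levels can be set side by side between genes only per length of coding sequence. In control cerebella the order was Mbp (1558 ± 398 CPM per kb, SD, n = 3), Slc1a3 (1206 ± 59.7), Cnp (1016 ± 233), Aqp4 (652 ± 222), Gdf10 (555 ± 128), Mag (525 ± 96.0), Mobp (451 ± 115), Mog (387 ± 12.6) and Gfap (221 ± 94.3). Neighbours differed by less than the larger of their SDs from Mbp to Cnp and from Aqp4 to Mog. The steps from Cnp to Aqp4 and from Mog to Gfap were larger than either SD. These lengths join all annotated coding exons of a gene, and Mbp includes the exons of its longer golli transcripts, which are also made outside oligodendrocytes.

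The other tissues held few footprints of these genes. In embryos and MEFs the 9 genes together took 0.00290% to 0.00706% of assigned counts. Mog had 0 counts in all 24 libraries outside the cerebellum, Gfap had 0 in all 6 embryo libraries and Mobp had 0 in all 18 MEF libraries. In wild type embryos a total of 0 allows up to 0.311 CPM (3 counts over the 3 libraries), which put the control cerebellum at least 3222-fold higher for Mag, 922-fold for Mog, 795-fold for Mobp and 1000.4-fold for Gfap. The genes with counts in embryos were Mbp (cerebellum 327-fold higher), Cnp (114), Aqp4 (154), Slc1a3 (119) and Gdf10 (71.1). Against control MEFs, the fold was 83.3 for Cnp, 184 for Gdf10, 282 for Slc1a3, 471 for Mbp, 1274 for Gfap and 2815 for Aqp4. It was larger for the other myelin genes, at 13888 for Mag, which had 8 counts over the 9 control libraries, and at least 11111 for Mog and 9577 for Mobp, which had 0. These floors cover counting error only.

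In E8.5 embryos, before oligodendrocytes or astrocytes form, 5 members had enough counts to be tested between Hbs1l -/- and wild type. With all libraries none passed, where 214 of 11416 genes (1.87%) did. Aqp4 was 4.35, 3.80 and 4.60 CPM in wild type and 1.98, 0.755 and 0.363 in Hbs1l -/-, from 11, 15 and 13 counts against 14, 3 and 1. It passed the filter on low counts only through the wild type libraries, so that its difference (-1.79) is given as a description. The same holds for its value without Hbs1l -/- replicate 1 (-2.76), where it was called in a fit that called 2309 genes. Cnp was 12.6, 13.2 and 9.21 CPM in wild type and 8.36, 4.53 and 6.89 in Hbs1l -/- (-0.81, SE 0.34, edgeR adjusted p = 0.229). Gdf10 had -0.73 (adjusted p = 0.280), Mbp 0.18 and Slc1a3 0.09. The difference between the cerebellar and the embryonic effect, a fit added after the values were seen, passed in 112 of 14624 genes (0.766%) and in no member.

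In MEFs, at low level, footprints of Slc1a3 were higher under all 3 mutant labels, and Gdf10 under Pelo and Upf2, while Mbp and Cnp were not called in edgeR with all libraries and TMM factors. Cnp was called in Pelo MEFs with library totals (0.30) or without mutant replicate 2 (0.33), and in Hbs1l MEFs Mbp was called without mutant replicate 2 (-0.85) and Gdf10 without mutant replicate 3 (0.71). Slc1a3 was 6.69, 7.62 and 6.43 CPM in controls and 20.0, 14.9 and 15.5 in Hbs1l MEFs (1.29, SE 0.16, edgeR adjusted p = 3.74e-05), a comparison in which 17.4% of 11984 genes were called higher. It was the 1 member called of the 4 tested. Gdf10 had 0.48 (adjusted p = 0.145), Cnp 0.02 and Mbp -0.71 (adjusted p = 0.0562). In RNA of the same genotype, where 12.7% of genes were called higher, Slc1a3 rose from 1.71, 1.76 and 1.74 TPM (abundance scaled for transcript length and library size) in controls to 4.24, 3.58 and 2.80 (1.13, SE 0.20, edgeR adjusted p = 0.00490). Gdf10 RNA had 0.88 (SE 0.42, edgeR adjusted p = 0.157), called with no filter (0.90) or without mutant replicate 3 (1.23). Without mutant replicate 1 it fell to 0.47 and was not called. The footprint effect minus the RNA effect for Slc1a3 was 0.18 (SE 0.26, edgeR adjusted p = 0.775), in an added fit where 0.0152% of genes passed.

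The difference of Slc1a3 between Hbs1l mutant and control was not the same in the 2 tissues. It was -0.30 in the cerebellum and 1.29 in MEFs, a difference of -1.59 (SE 0.25, edgeR adjusted p = 0.00334). Tissue, level of Slc1a3, Cre line and its target cells, age and batch label differ together between the 2 comparisons and cannot be told apart. The fit, added after the values were seen, called 4.74% of 14446 genes. Leaving out each library in turn kept the difference between -1.80 and -1.43 with a largest edgeR adjusted p of 0.0170. Cnp (-0.39), Gdf10 (-0.67) and Mbp (0.90, adjusted p = 0.166) did not pass this test.

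In Pelo MEFs 22.9% of 12486 genes were called higher. Slc1a3 was 9.33, 7.32 and 6.51 CPM in controls and 19.0, 14.7 and 25.9 in mutants (1.37, SE 0.22, edgeR adjusted p = 0.000618). Gfap went from 1, 3 and 4 counts in controls to 116, 59 and 110 in Pelo MEFs. That was a ratio of 21.3 after scaling (95% counting interval 10.7 to 49.9). Aqp4 went from 1, 6 and 3 counts to 63, 48 and 76, a ratio of 11.2 (5.95 to 23.7). These intervals pool the 3 libraries of a group and cover counting error only, not the spread between embryos. Gfap and Aqp4 passed the filter on low counts only through their mutant libraries, so that their differences (4.37 and 3.44) are given as a description. Their mean in Pelo MEFs was 4.91 and 3.19 CPM of all counts. Mog and Mobp stayed at 0 counts and Mag had 10 against 2. Gdf10 was 4.05, 4.31 and 4.28 CPM in controls and 6.58, 4.50 and 13.99 in mutants (1.02, SE 0.37, edgeR adjusted p = 0.0455). It no longer passed without mutant replicate 3, where it fell to 0.40, or without any 1 of the controls, where it was 0.98 to 1.03.

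RNA of Pelo MEFs came from 2 mutant libraries. Gfap RNA was 0.121, 0.209 and 0.365 TPM in controls and 1.20 and 0.695 in Pelo MEFs (1.14, SE 0.31, edgeR adjusted p = 0.0301, with 15.5% of genes called higher). That call was lost in DESeq2, with the replicate number as a block (1.30) and without any 1 of 4 libraries: Pelo 1 (1.16), Pelo 2 (1.14), control 2 (1.19) or control 3 (1.28). These values add up all transcripts of a gene. The non-coding Gfap transcript Gfap-203 had a mean of 0.0532 TPM in controls and 0.531 in Pelo MEFs, and the main coding transcript Gfap-201 had 0.155 and 0.318. Slc1a3 RNA was 1.32 and 1.11 TPM in Pelo MEFs (-0.21, edgeR adjusted p = 0.403). Its transcripts were not tested singly. The coding Slc1a3-201 had a mean of 0.694 TPM (SD 0.229) in controls and 0.784 (SD 0.0072) in Pelo MEFs, a move smaller than the control SD. The shorter coding Slc1a3-208 had 0.265 (SD 0.160) and 0.0813 (SD 0.115). The non-coding Slc1a3-207 had 0.732 and 0.317. The footprint effect minus the RNA effect, with all transcripts of a gene added up, passed in 40.5% of 13701 genes. It was 1.59 for Slc1a3 (SE 0.32, edgeR adjusted p = 0.00153) and 0.46 for Cnp (SE 0.15, adjusted p = 0.0232), the last lost without any 1 of 4 libraries at 0.40 to 0.47. Footprint and RNA libraries came in separate batches.

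In the MEF libraries labelled Upf2, 22.3% of 12166 genes were called higher. Slc1a3 was 7.36, 7.38 and 7.85 CPM in controls and 35.0, 24.4 and 20.1 under that label (1.80, SE 0.18, edgeR adjusted p = 2.56e-05). Gdf10 was 4.88, 4.83 and 4.38 CPM in controls and 15.7, 12.1 and 11.4 under that label (1.46, SE 0.17, edgeR adjusted p = 5.00e-05). Cnp had -0.26 and Mbp -0.41, neither past the test. No member of 5 tested passed in RNA of that label, where 20.0% of genes passed in either direction: Slc1a3 had 0.36 and Gdf10 -0.35. The mean TPM of Slc1a3 was 1.67 under that label and 1.74 in controls, so its direction differed between estimated counts and TPM. Its transcripts were not tested singly and did not move together. The coding Slc1a3-201 had a mean of 0.694 TPM (SD 0.229) in controls and 1.03 (SD 0.380) under that label. The non-coding Slc1a3-207 had 0.732 and 0.551, and the shorter coding Slc1a3-208 had 0.265 and 0.0288. The footprint effect minus the RNA effect, with coding and non-coding transcripts of a gene added up, passed in 18.0% of 13302 genes. It was 1.43 for Slc1a3 (SE 0.29, edgeR adjusted p = 0.00471) and 1.81 for Gdf10 (SE 0.32, edgeR adjusted p = 0.00246).

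**Figure D4:**
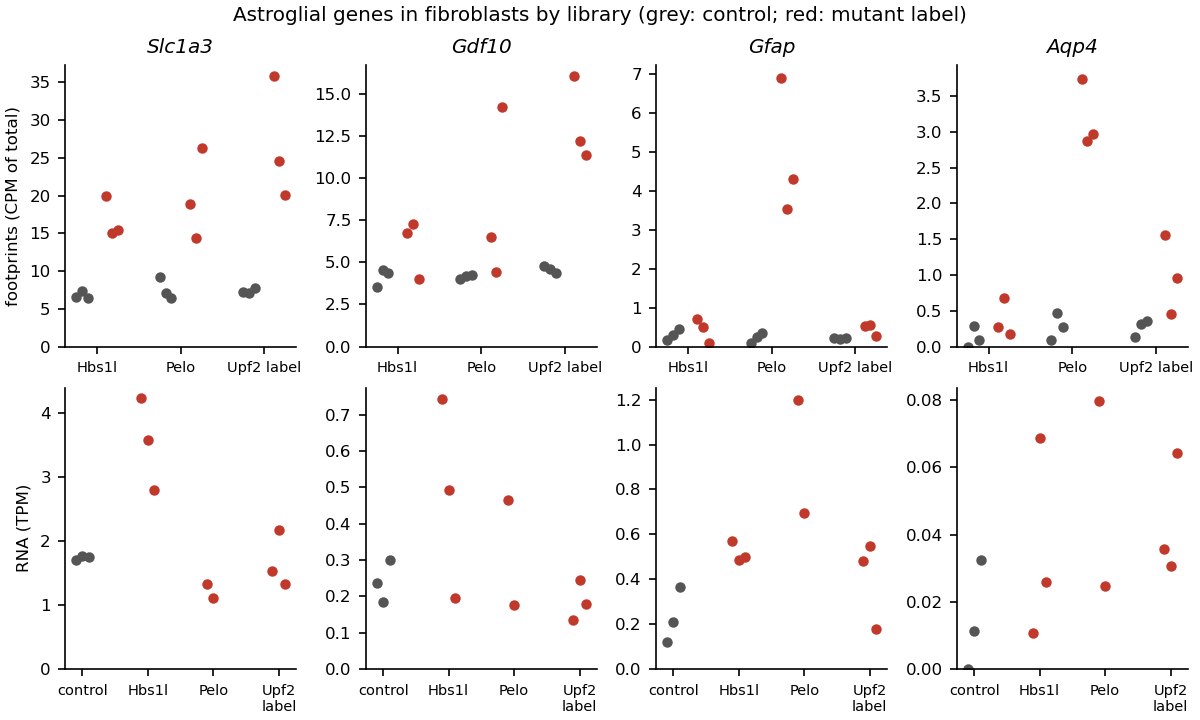
Footprints (upper row, CPM of all assigned counts) and RNA (lower row, TPM) of Slc1a3, Gdf10, Gfap and Aqp4 in each MEF library (points), by mutant label on the x axis, with controls in grey and mutants in red. Footprints of Slc1a3 are above control in all 3 mutant labels, and its RNA is above control in each of the 3 Hbs1l libraries. Gfap and Aqp4 footprints lie above control in Pelo MEFs and, by less and from few counts, under the Upf2 label.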

How the data were processed

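Ribosome-protected fragments were sequenced from cerebella, embryos and MEFs and mRNA libraries, made from total RNA, from MEFs. Per the labels and the methods of the study, the authors removed rRNA, snoRNA and tRNA reads with Bowtie2 (2.2.3), aligned the other footprints to mm10 with HISAT2 (2.1.0) and deposited raw counts of reads in coding sequence per gene (featureCounts); for RNA they deposited estimated counts and TPM per transcript from kallisto (0.42.4). Counts per gene hold no position of a footprint. Here, both were added up over the transcripts of a gene, and the estimated counts were then rounded to whole numbers.

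Each mutant was compared with its own controls by edgeR's quasi-likelihood test (edgeR 4.0.16, R 4.3.3; TMM factors, filterByExpr, Benjamini-Hochberg over all genes tested, calls at an adjusted p of at most 0.05). Histone-prefixed symbols were removed for footprints, as in the study. The SE was the log2 fold change divided by the square root of F. Fits were tested on simulated data first. DESeq2 (1.42.0), RLE factors, library totals, no filter, histones kept, the replicate number as a block and each replicate left out were the alternatives. Fits of differences between effects, and lists without control 3, were added after seeing the data. MEF replicates came from separate embryos and cerebella from separate mice. Levels were CPM of the library total, with a floor of 3 counts for a total of 0.

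The 9 genes and all lists were chosen with earlier results of these data known. Named were the 9 genes, the targeted genes, list genes past the threshold or else the 3 of highest mean CPM, and the 5 genes most like each group of members. A few further list genes (Mal, Opalin, Aspa, Pdgfra, Cspg4 and Sox9) were named after their values were seen. Positions and coding sequences are from Gencode M21 on GRCm38. Some genes of the lists are not reported here by name.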

Additional observations from a re-analysis of the deposited data

Results flagged for a closer look

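The difference in Slc1a3 footprints between Hbs1l mutant and control was not the same in cerebellum and MEFs (log2 difference -1.59, cerebellum minus MEF, SE 0.25, edgeR adjusted p = 0.00334). The cerebellar effect on its own was not called (-0.30, SE 0.19, edgeR adjusted p = 0.541). All 3 MEF mutants lay above all 3 controls, and in the cerebellum 2 of 3 mutants lay below all 3 controls. In the cerebellum Cre was not targeted to the glia that express Slc1a3, and the cKO glia carried a null allele beside the floxed one. Tissue, level of Slc1a3, Cre line and its target cells, age and batch label differ together between the 2 comparisons and cannot be told apart.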

How the results depend on the processing

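Over 49 values of single genes and 589 alternatives, 548 kept direction and side of the threshold, 14 lost a call, 10 gained one and 17 changed sign; the cause was not tested. The 9 genes called in the cerebellum became 484 with DESeq2, 16 with no filter, 67 with histone genes kept and 0 to 560 with 1 replicate left out. The replicate numbers do not pair the cerebella (correlation of same-numbered deviations 0.35, -0.24 and 0.20), and the replicate block called 0 genes in edgeR, with 2090 at an unadjusted p under 0.05. In embryos 214 genes became 432 with DESeq2, 139 with library totals, 703 with no filter, 564 with the replicate block and 28 to 2309 with 1 replicate left out. In Pelo MEF RNA 4727 genes became 2955 with the replicate block and 1506 to 4802 with 1 replicate left out; the ranges were 1817 to 2663 for Hbs1l RNA (3542 in all) and 1800 to 3201 for RNA labelled Upf2 (3194 in all).

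Sign changes came from values that passed no test, from -0.14 (cerebellar Mobp) to 0.26 (Gdf10 in Pelo RNA). Mbp in Pelo footprints (-0.00) was 0.022 with library totals, 0.0018 with no filter, 0.0077 with the replicate block and -0.16 to 0.18 with 1 replicate left out. Leaving out 1 replicate gave -0.28 to 0.057 for cerebellar Mobp, -0.00116 to 0.65 for embryonic Mbp, -0.15 to 0.36 for embryonic Slc1a3, -0.043 to 0.053 for Cnp in Hbs1l MEF footprints and -0.036 to 0.11 in RNA, -0.50 to 0.73 for Gdf10 in Pelo RNA, and -0.034 to 0.13 for Mbp and -0.074 to 0.28 for Gfap in RNA labelled Upf2. The median of the 5 myelin genes in the cerebellum was -0.49 without control 3. Depth limits embryos most, where Aqp4 rests on 1 to 15 counts a library.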
